A study of Mus musculus with 4 samples.

Results

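Immunoglobulin transcripts were followed through the kidneys of old mice given a glutaminase inhibitor or its vehicle. The genes described are the 10 features whose symbols are Igha, Ighm, Ighd, Ighg1, Ighg2b, Ighg2c, Ighg3, Igkc, Iglc2 and Jchain, out of 31053 genes in the deposited matrices. Kidneys came from male C57BL/6 mice 19 months old that received BPTES, an inhibitor of the glutaminase GLS1, or DMSO, the vehicle, for 1 month. Each group comprised 2 libraries of single cells made with the 10x Genomics GEM-X 3' chemistry. For each library, 20000 sorted cells without CD45, a leukocyte surface marker, were mixed with 9000 sorted cells that carry it, so the share of leukocytes was set by the sort. The labels do not say that the libraries came from separate animals, so p-values measure the spread between these samples, which may be technical.

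An antibody is built from a pair of heavy and a pair of light chains, and the constant gene of the heavy chain sets its class. Naive B cells make IgM and IgD from Ighm and Ighd by alternative splicing, and class switching replaces them with a downstream constant gene such as Ighg1, Ighg2b, Ighg2c, Ighg3 or Igha. Light chains are of the kappa type (Igkc) or the lambda type (Iglc1, Iglc2, Iglc3), and kappa predominates in mice. J chain, from Jchain, joins IgA dimers and IgM pentamers, which the polymeric immunoglobulin receptor Pigr carries across epithelia. Plasma cells, the secreting end of the B lineage, devote much of their messenger RNA to these genes.

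The 3' ends of the coding sequences show how alike some members are and which heavy chains carry the cysteine that binds J chain. The last 66 coding bases (stop codon included) of the shorter coding transcript are given 5′ to 3′ in build GRCm38 (mm10), all read from the minus strand. Capitals in Igha and Ighm mark the codon of the penultimate residue, a cysteine that in the secreted chain bonds to J chain, and the capital in Iglc3 marks the base that differs from Iglc2.
Igha (chr12:113258768-113258833): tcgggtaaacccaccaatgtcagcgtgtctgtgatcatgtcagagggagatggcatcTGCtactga
Ighm (chr12:113420867-113420932): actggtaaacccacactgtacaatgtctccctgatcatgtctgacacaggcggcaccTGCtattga
Ighg2b (chr12:113306389-113306454): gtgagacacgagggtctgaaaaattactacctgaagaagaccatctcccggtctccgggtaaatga
Ighg2c (chr12:113287389-113287454): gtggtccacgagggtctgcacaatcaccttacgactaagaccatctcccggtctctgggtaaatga
Iglc2 (chr16:19198536-19198601): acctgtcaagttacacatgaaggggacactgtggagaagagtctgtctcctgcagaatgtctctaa
Iglc3 (chr16:19065365-19065430): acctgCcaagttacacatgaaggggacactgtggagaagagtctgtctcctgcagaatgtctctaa
Of the 7 heavy chain members, Igha and Ighm end in cysteine, tyrosine and stop, and the other five do not. Over the last 300 coding bases Iglc2 and Iglc3 shared 96.3% of bases. Reads and untranslated ends were not compared, so how well reads were split between these genes is not known. Among the 4 IgG genes the shared part ran from 66.3% to 76.0%, the highest being Ighg2b with Ighg2c. In the annotation the 7 heavy chain members lie on chromosome 12, Igkc on chromosome 6, Iglc2 on chromosome 16 and Jchain on chromosome 5 (88519809 to 88527891). Jchain is annotated as protein coding with 4 exons in its shorter coding transcript, and the other nine members as immunoglobulin constant genes.

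The matrices held 76278 barcodes and between 249881074 and 297947661 UMIs (unique molecular identifiers, each a captured transcript molecule) per library. Library pairs shared 90 to 114 barcodes. After filters, 46738 cells remained, and clustering without any immunoglobulin gene or Jchain gave 21 named classes, among them 469 plasma cells and 1214 B cells. Proximal tubule, named from markers such as Slc34a1 and Lrp2, was the largest class. In the plasma cell class the summed level of 12 plasma cell markers (such as Xbp1, Mzb1 and Txndc5) was 4248 and 4613 CPM (counts scaled to a class total of 1000000 UMIs) under BPTES and 3851 and 3915 under DMSO. In the B cell class the same sum was 788 to 899 CPM, while 10 B cell markers (such as Ms4a1 and Pax5) summed to 12061 and 12408 CPM under BPTES and 10754 and 8903 under DMSO. The plasma cells of the first DMSO library were shallow: the 12 markers were counted in 36.4% (Fkbp11) to 81.8% (Eaf2, Irf4 and Txndc5) of them, a smaller share than in any other library for each marker except Irf4. In CPM, Xbp1, Irf4, Prdm1 and Eaf2 were highest in that library. Markers of other cell types were also counted in both classes. Those of macrophages summed to 1944 and 854 against 1799 and 4518 CPM in plasma cells, with overlap, and to 1269 and 715 against 3094 and 8968 CPM in B cells. T cell markers were lower under BPTES in both classes, at 102 and 45.2 against 221 and 219 CPM in plasma cells and at 21.0 and 9.64 against 39.9 and 85.7 CPM in B cells. Proximal tubule markers were higher under BPTES in both, at 176 and 110 against 77.5 and 42.5 CPM in plasma cells and at 390 and 215 against 184 and 97.7 CPM in B cells. The part of these markers in the results below was not tested.

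Under BPTES the 10 genes together took 2.48% and 3.80% of a library's UMIs, and under DMSO 0.358% and 0.478%. The groups did not overlap. Plasma cells held 85.2% and 66.7% of all heavy chain UMIs under BPTES, and 22.9% and 69.9% under DMSO. Barcodes removed as predicted doublets held 10.9% and 29.8% under BPTES and 57.9% and 15.4% under DMSO, so the first DMSO library kept the smallest part of its heavy chain transcripts in the plasma cell class. That library's 22 plasma cells also had a median of 3472 UMIs, against 61743 and 59709 under BPTES and 87509 in the second DMSO library.

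Plasma cells were assigned to the heavy chain gene with the most UMIs in each cell. IgA-led plasma cells were more numerous under BPTES: Igha was the leading gene in 123 and 164 plasma cells under BPTES and in 7 and 5 under DMSO. As a share of CD45-positive cells this was 3.997% ± 0.924 (SD, n = 2) against 0.158% ± 0.0208 (SD, n = 2). CD45-positive cells are here those of the named leukocyte classes, the cycling class included, since the sort of each cell is not recorded. The increase was 4.62 on the log2 scale with SE 0.50 (edgeR's quasi-likelihood test on cell numbers, adjusted p = 2.5e-04). It was the single feature called higher among 18 CD45-positive cell groups (5.56%), higher in both BPTES libraries than in either DMSO library. The estimate was 6.49 under a mitochondrial limit of 25%, which left 2 and 1 Igha-led cells among 19 and 14 plasma cells under DMSO. The exact two-sided permutation test over 4 libraries cannot go below p = 0.3333, the value it gave.

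The difference was less clear for IgM. Ighm led in 83 and 21 cells under BPTES and in 6 and 16 under DMSO, and the first BPTES library stood above the other three. The log2 difference was 2.25 with SE 0.80 (edgeR, adjusted p = 0.0760). Whether it was called turned on single libraries: the threshold was reached without the second BPTES library (2.90, edgeR adjusted p = 0.0263) or without the second DMSO library (3.24, edgeR adjusted p = 0.00584), and the difference was 0.99 without the first BPTES library.

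IgG genes led in few plasma cells. The 4 IgG genes together led in 18 and 9 cells under BPTES and in 7 and 3 under DMSO (log2 1.48, SE 0.62, edgeR adjusted p = 0.103). Most of these were led by Ighg2b, with 12 and 5 against 5 and 2 cells, followed by Ighg2c with 6 and 2 against 2 and 1. Ighg1 and Ighg3 each led in a single cell of the second BPTES library. No plasma cell was led by Ighd.

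Within the plasma cells, the Igha-led share was 53.9% and 84.1% under BPTES and 31.8% and 20.8% under DMSO (69.0% ± 21.3 against 26.3% ± 7.77, SD, n = 2 each; exact permutation p = 0.3333, the smallest possible). The IgG-led share was 6.26% ± 2.32 against 22.2% ± 13.7 (SD, n = 2 each; exact permutation p = 0.3333). These shares were thinly based in the first DMSO library, where 12 of 22 plasma cells had under 100 heavy chain UMIs and the 7 IgG-led cells had a median of 9. Among plasma cells with at least 100, Igha led in 97, Ighm in 63 and IgG genes in 17 in the first BPTES library, against 126, 14 and 8 in the second. The first DMSO library then had 6, 3 and 1 and the second 5, 14 and 3, so that the Igha-led share of the first DMSO library overlapped that of the BPTES libraries. By UMIs the IgG share also overlapped (BPTES 9.64% and 6.89%, DMSO 0.997% and 13.9%). The order of the IgA numbers was the same with predicted doublets kept: Igha led in 133 and 218 plasma cells under BPTES and in 13 and 7 under DMSO. Barcodes with at least 1000 heavy chain UMIs, whatever their class, numbered 189 and 213 under BPTES and 31 and 33 under DMSO, a threshold chosen after the values were seen. Of these, Igha led in 107 and 174 against 12 and 6, Ighm in 66 and 26 against 16 and 22, and IgG genes in 16 and 13 against 3 and 5. These barcodes held 95.2%, 96.4%, 83.3% and 89.4% of all heavy chain UMIs of their libraries.

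**Figure D1:**
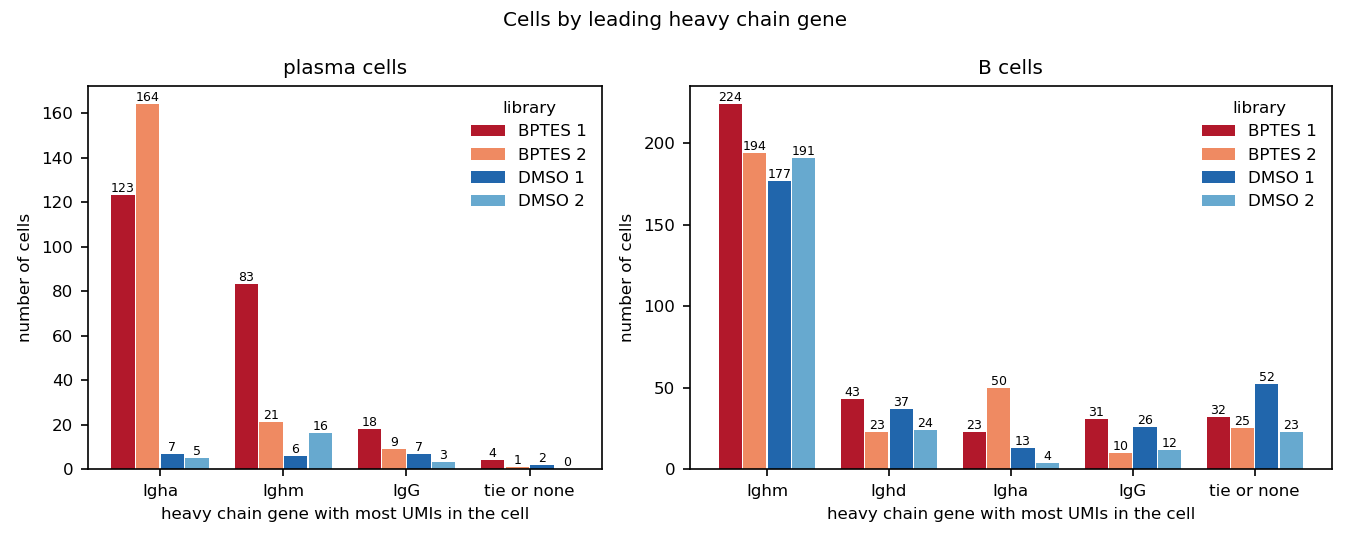
Number of plasma cells (left) and B cells (right) on the vertical axis by the heavy chain gene with the most UMIs in the cell, 1 bar per library (red shades BPTES, blue shades DMSO). Igha-led plasma cells number 123 and 164 under BPTES and 7 and 5 under DMSO, while Ighm-led B cells number 177 to 224 in all 4 libraries.

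B cells were assigned in the same way. The B cell class numbered 353 and 302 cells under BPTES and 305 and 254 under DMSO. Ighm led in 224 and 194 cells under BPTES and in 177 and 191 under DMSO (log2 0.24, SE 0.38, edgeR adjusted p = 0.706). Ighd led in 43 and 23 against 37 and 24 cells, and IgG genes in 31 and 10 against 26 and 12. Igha led in 23 and 50 B cells under BPTES and in 13 and 4 under DMSO, without overlap. That difference did not pass the test (log2 2.18, SE 0.66, edgeR adjusted p = 0.0609), but did without the first DMSO library (3.11, edgeR adjusted p = 0.0190). The lead was thinly based: Igha-led B cells had a median of 5 and 3 heavy chain UMIs under BPTES and 5 and 7 under DMSO, and their median total was 2695 and 1641 UMIs against 3437 and 12653. Requiring at least 5 heavy chain UMIs with over 50% from the leading gene left 9 and 11 against 6 and 2 Igha-led B cells.

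The heavy chain composition by UMIs is shown beside the cell numbers because a few cells can carry most transcripts. Each UMI marks a molecule captured at its 3' end, so the shares are of captured molecules and need no length scaling. In whole libraries Igha made up 59.6% and 83.1% of heavy chain UMIs under BPTES and 35.6% and 21.5% under DMSO. Ighm made up 30.7% and 9.96% against 54.5% and 62.3%. Both orders were without overlap. In the plasma cell class the Igha share was 60.9% and 87.0% against 82.9% and 26.5%, so the groups overlapped there. The first DMSO library rested on 8 cells with at least 1000 heavy chain UMIs. That overlap depended on the processing. With predicted doublets kept the share was 61.4% and 84.8% against 45.9% and 26.4%, without overlap. Under a mitochondrial limit of 25% it was 66.3% and 83.8% against 66.4% and 12.6%, with overlap. In proximal tubule cells, which are outside the B lineage, the Igha share was 56.1% and 86.4% under BPTES and 37.2% and 13.1% under DMSO, in the same order as in the whole libraries. B cells kept Ighm as the main heavy chain at 61.4% and 68.0% against 71.5% and 72.2%, and Ighd at 21.8% and 22.6% against 20.04% and 22.1%.

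**Figure D2:**
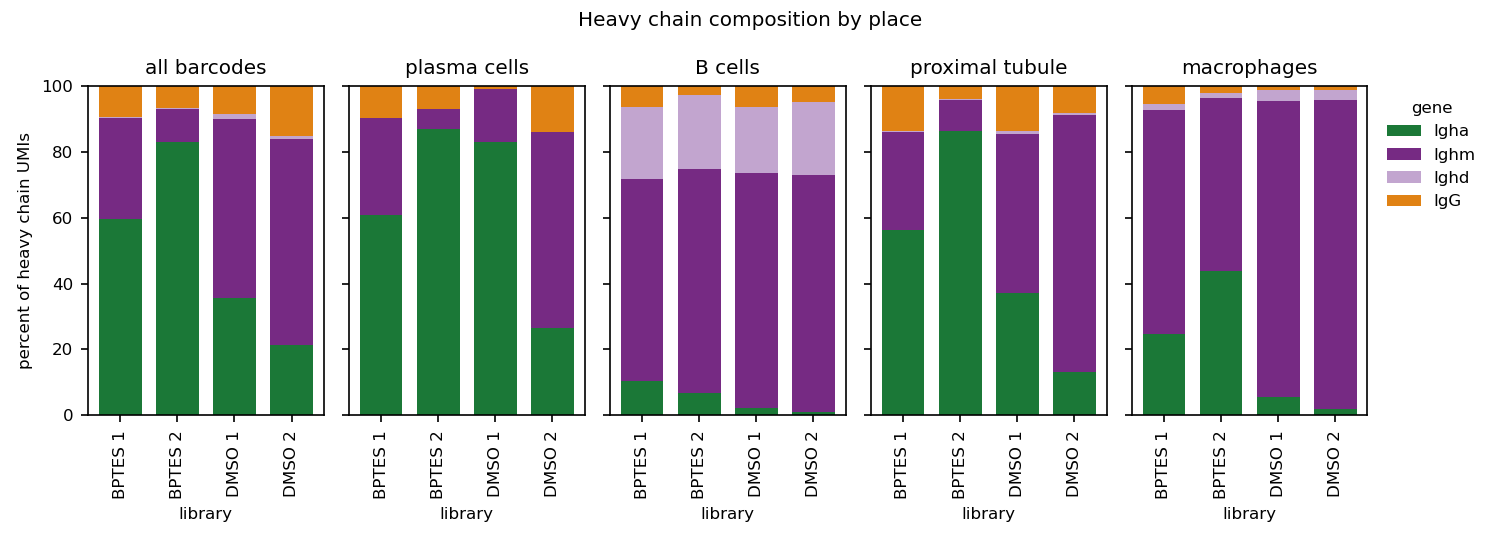
Percent of heavy chain UMIs (vertical axis) from Igha, Ighm, Ighd and the 4 IgG genes summed, by library (horizontal axis), in all barcodes and in 4 cell classes. Igha takes 59.6% and 83.1% of heavy chain UMIs in all barcodes under BPTES against 35.6% and 21.5% under DMSO, and Ighm takes 61.4% to 72.2% in B cells.

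Per plasma cell RNA, none of the members passed the test. Levels are given as CPM scaled by edgeR's trimmed mean of M-values, and edgeR's quasi-likelihood test with Benjamini-Hochberg adjustment over all genes compared the libraries' class sums. All 10 members passed the low-count filter in plasma cells and 0 were called, beside 0.0621% of 11267 genes called higher. At an unadjusted p under 0.05 edgeR found 0 members and DESeq2 found 2, of which DESeq2 called 0 after adjustment. For 4 of the 10 both BPTES libraries lay above both DMSO libraries (Ighd, Ighg1, Ighg3, Iglc2), where 20.8% of all genes did so. Ighg1 had 0 UMIs in both DMSO libraries and passed the filter through the BPTES libraries alone. Its order was thus set by the filter and is no support.

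Igha in plasma cells was at 70981 and 157416 CPM under BPTES and at 104005 and 36365 CPM under DMSO (log2 0.70, SE 0.64, edgeR adjusted p = 0.951). That value was 0.014 without the second BPTES library, 1.65 without the first DMSO library and 1.47 with predicted doublets kept, and was called in none of these. Ighm was at 34340 and 11022 against 20233 and 81696 CPM (log2 -1.17, SE 0.79, edgeR adjusted p = 0.936), and its direction turned without the second DMSO library (0.19). The groups overlapped for both genes. The IgG levels rested on few cells. Of 13378 Ighg1 UMIs in plasma cells of the second BPTES library, 13189 came from 1 cell, and of 10385 Ighg3 UMIs 10348 came from another. In the DMSO plasma cells Ighg1 had 0 UMIs in both libraries, which allows up to 5.67 and 1.36 CPM (3 counts per library, counting error only). Ighg2b was at 7816 and 6693 against 1212 and 14552 CPM, and Ighg2c at 3390 and 3187 against 26.8 and 4505 CPM. Ighd was close to absent, with 10.8 and 5.42 against 0 and 4.02 CPM.

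In B cells, Ighm was at 2407 and 2810 CPM under BPTES and at 2388 and 2121 under DMSO (log2 0.21, SE 0.12, edgeR adjusted p = 0.401). Ighd was at 855 and 933 against 669 and 649 CPM (log2 0.44, SE 0.11, edgeR adjusted p = 0.0813). Neither passed the test, although both BPTES libraries were the higher ones. Igha was at 404.6 and 275.4 CPM under BPTES and at 72.9 and 25.6 under DMSO (log2 2.81, SE 0.61, edgeR adjusted p = 0.153). In the first BPTES library a single B cell with 50150 UMIs held 777 Igha UMIs, and without that cell the level there was 195.8 CPM. Without the first or the second DMSO library, Igha passed the test in B cells (3.73 and 2.23, edgeR adjusted p = 3.4e-04 and 0.00769). Ighg1 did not pass the filter in B cells: its 141 UMIs in the first DMSO library compare with 4 to 7 in the other libraries, and 42 of them came from 1 cell.

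Light chains were read in the same sums. Igkc, the kappa constant gene, was at 273830 and 460514 CPM in plasma cells under BPTES and at 325115 and 311737 under DMSO (log2 0.21, SE 0.47, edgeR adjusted p = 1.00). Kappa made up 96.5% and 96.2% of light chain UMIs in plasma cells under BPTES and 99.6% and 94.4% under DMSO, and 77.7% and 80.8% against 76.5% and 75.6% in B cells. Kappa thus took a larger share in plasma cells than in B cells in all 4 libraries. The lambda part in plasma cells rested partly on single cells. In the second DMSO library 35297 of 36293 Iglc1 UMIs came from 1 cell. In the second BPTES library 42068 of 46898 Iglc3 UMIs came from 1 cell. Igkc UMIs per heavy chain UMI were 2.35 and 2.55 against 2.59 and 2.27 in plasma cells, and 1.49 and 1.60 against 1.48 and 1.40 in B cells. Iglc2, a lambda constant gene, was at 1918 and 2110 against 602 and 1755 CPM in plasma cells (log2 0.77, SE 0.50, edgeR adjusted p = 0.936). In B cells Igkc was at 5857 and 6592 against 4940 and 4103 CPM (log2 0.46, SE 0.12, edgeR adjusted p = 0.0977), and Iglc2 at 751 and 802 against 642 and 586 CPM (log2 0.34, SE 0.11, edgeR adjusted p = 0.159).

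Within plasma cells, J chain ratios were ordered by antibody class. Among plasma cells with at least 100 heavy chain UMIs, Jchain gave a median of 31.9 and 38.1 UMIs per 100 heavy chain UMIs in Igha-led cells under BPTES, and 35.3 and 27.3 under DMSO. In Ighm-led cells the medians were 7.86 and 17.9 against 17.4 and 18.9. In IgG-led cells they were 6.53 and 6.41 against 2.29 (1 cell) and 6.38. The order IgA over IgM over IgG held in 4 of 4 libraries, and the IgA values did not overlap with the IgM values.
The mean difference between Igha-led and Ighm-led cells was 17.6 ± 6.66 UMIs per 100 (SD, n = 4 libraries; exact sign-flip permutation p = 0.125, adjusted over 3 comparisons 0.125). Between Ighm-led and IgG-led cells it was 10.1 ± 6.05, and between Igha-led and IgG-led cells 27.7 ± 5.66 (SD, n = 4; exact permutation p = 0.125 for each). That p is the smallest that 4 libraries allow. IgG-led cells, whose heavy chain lacks the cysteine ending printed above, still carried some Jchain UMIs. Ighm-led cells of the first BPTES library, 63 in number, had the lowest J chain ratio of the IgM groups.

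**Figure D3:**
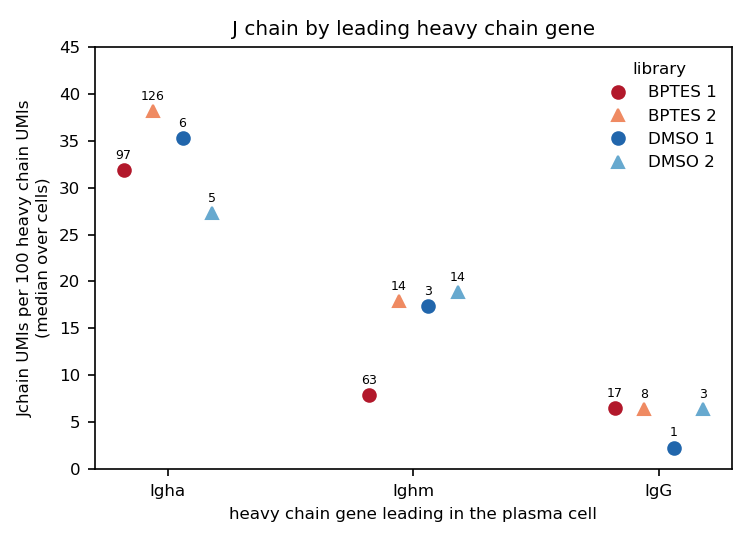
Median Jchain UMIs per 100 heavy chain UMIs (vertical axis) in plasma cells with at least 100 heavy chain UMIs, by leading heavy chain gene (horizontal axis), 1 point per library with the number of cells above it. Igha-led cells lie between 27.3 and 38.1, Ighm-led cells between 7.86 and 18.9 and IgG-led cells between 2.29 and 6.53.

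Over the whole plasma cell class, Jchain was at 29537 and 65040 CPM under BPTES and at 42450 and 28888 under DMSO (log2 0.41, SE 0.50, edgeR adjusted p = 0.966), and the sign turned without the second BPTES library (-0.27). In B cells Jchain was at 84.5 and 63.2 CPM under BPTES and at 8.10 and 5.75 under DMSO. It was the member called there, with a log2 difference of 3.43 and SE 0.24 (edgeR adjusted p = 0.00472), 1 of 9 members tested beside 0.148% of 10836 genes called higher. In the first BPTES library, 155 of the 312 Jchain UMIs in B cells came from 1 cell, the same that held 777 Igha UMIs. Without the richest cell of each library the unscaled levels were 42.9 and 61.0 against 7.68 and 4.51 CPM, still without overlap. With predicted doublets kept the call was lost (log2 4.80, edgeR adjusted p = 0.311), and under a mitochondrial limit of 25% the estimate was 5.19 (edgeR adjusted p = 0.00674). For comparison, the unscaled Jchain level over 16 classes outside the B lineage (each with at least 20 cells in every library, the cycling class and unnamed cells left out) had a median of 24.8 and 44.8 CPM under BPTES and 6.43 and 5.33 under DMSO. The range over those classes was 14.999 to 52.7 and 30.2 to 87.1 CPM under BPTES and 2.37 to 9.89 and 2.26 to 231 CPM under DMSO, so the B cell level without the richest cell lay inside it in every library. Injured tubule alone set the upper end of 231 CPM, and the next class there, innate lymphoid cells, was at 7.31 CPM, still above the B cell level. The cycling class had 13.9 and 681 against 194 and 39.1 CPM. The proximal tubule markers in B cells were separated by group in the same direction as Jchain, and their part was not tested. Of the 9 members tested in B cells, 6 were higher in both BPTES libraries than in both DMSO libraries, where 24.6% of all genes were. Without a small B cell cluster (1 and 3 cells of the BPTES libraries, 16 and 42 of the DMSO libraries), an alternative chosen after seeing the data, Jchain was still called (log2 3.24, edgeR adjusted p = 7.3e-04). The median log2 difference of the 9 members then went from 0.44 to 0.14, and 7 in place of 9 were above 0.

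**Figure D4:**
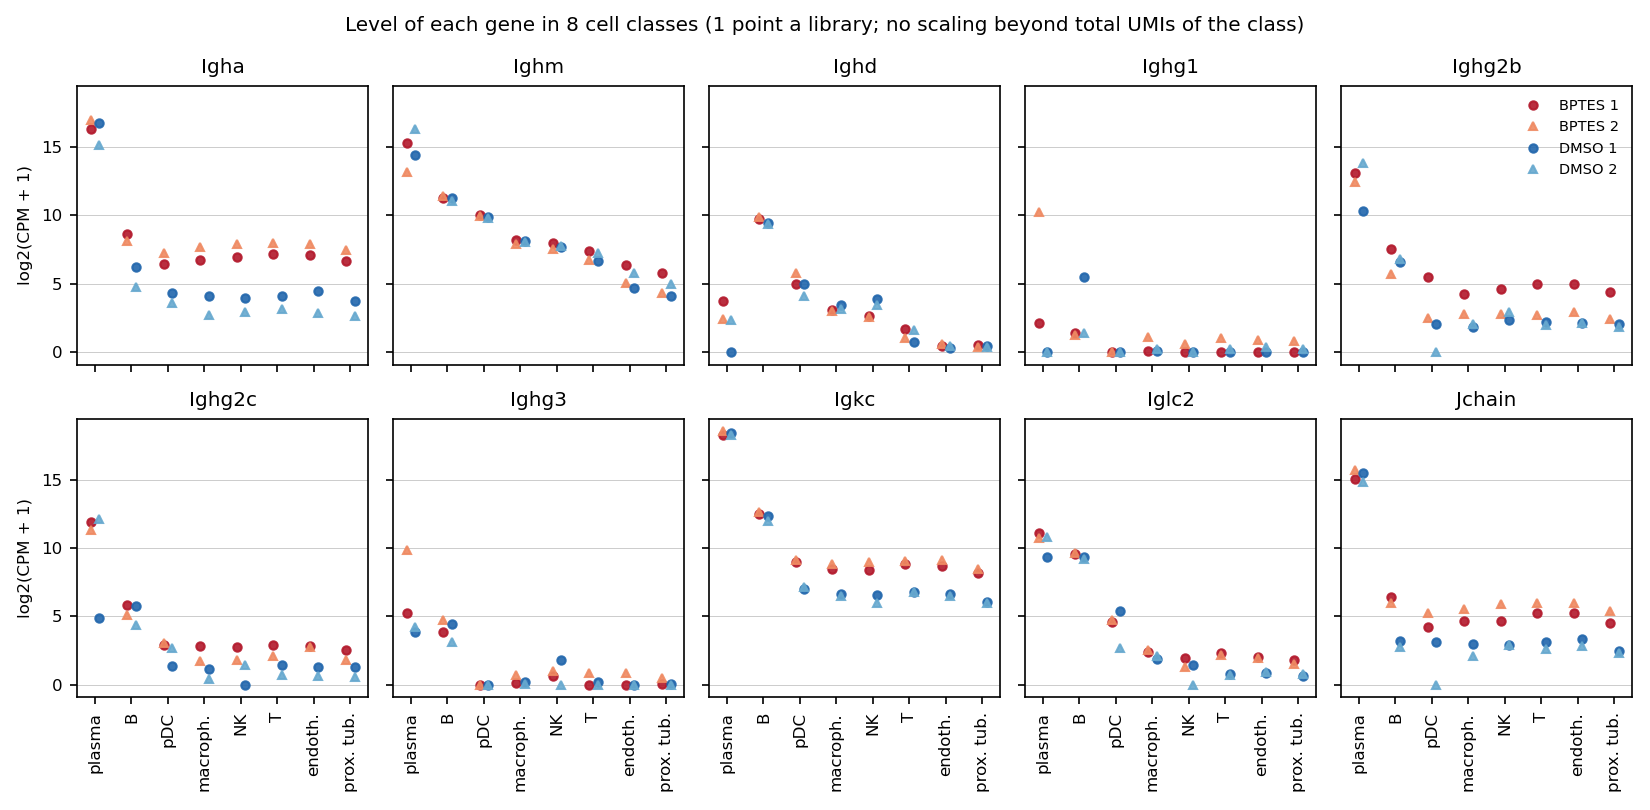
Level of each of the 10 genes as log2(CPM + 1) (vertical axis) in 8 cell classes (horizontal axis), 1 point per library; pDC stands for plasmacytoid dendritic cells, NK for natural killer cells. Igha, Igkc and Jchain lie higher in both BPTES libraries in every class to the right of B cells, whereas Ighm is at like levels in all 4 libraries from B cells to macrophages.

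Transcripts of the members were also counted in classes outside the B lineage. Over 16 such classes the median unscaled level of Igha was 103 and 185 CPM under BPTES and 12.4 and 5.69 under DMSO, that of Igkc 338 and 440 against 75.7 and 75.3, and that of Ighm 104 and 37.9 against 31.7 and 84.5. Igha and Igkc were thus separated by group, and Ighm was not. The classes came from the same 4 libraries, so their differences are not independent of each other or of the plasma cell numbers in those libraries, and the part of free RNA in them was not tested.

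In proximal tubule cells Igkc was at 283 and 385 CPM under BPTES and at 61.3 and 62.7 under DMSO (log2 2.43, SE 0.15, edgeR adjusted p = 0.00483). Iglc2 was at 2.45 and 2.05 against 0.495 and 0.684 CPM (log2 1.94, SE 0.23, edgeR adjusted p = 0.0349). These 2 of the 9 members tested were called, beside 0.15% of 15957 genes called higher, and 6 of 9 lay without overlap above DMSO, where 28.0% of genes did. Igha had the larger estimate but a wider spread, at 99.5 and 183.8 against 11.7 and 5.06 CPM (log2 4.07, SE 0.65, edgeR adjusted p = 0.143), and so had Jchain at 21.5 and 44.6 against 4.17 and 4.03 CPM (log2 3.01, SE 0.44, edgeR adjusted p = 0.124). Ighd was at 0.441 and 0.301 against 0.307 and 0.293 CPM, and Ighg3 did not pass the filter. Ighm overlapped, at 52.9 and 20.3 against 15.1 and 30.1 CPM. The Iglc2 call was lost without the second BPTES library (2.06, edgeR adjusted p = 0.162), and with finer clustering both calls were lost (Igkc 1.28, edgeR adjusted p = 0.453, and Iglc2 1.29, edgeR adjusted p = 0.198). B cell markers summed to 3.55 to 5.95 CPM in proximal tubule cells.

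Igkc was also called in endothelium, T cells and macrophages. In endothelium Igkc was at 400.1 and 565 against 98.3 and 87.7 CPM (log2 2.37, SE 0.18, edgeR adjusted p = 0.0166) and Ighg2c at 6.09 and 5.81 against 1.47 and 0.548 CPM (log2 2.65, SE 0.43, edgeR adjusted p = 0.0375), 2 of 7 members tested beside 0.247% of genes called higher. Without the second DMSO library Igkc missed the threshold there (2.29, edgeR adjusted p = 0.0565), and with predicted doublets kept Ighg2c did (2.52, edgeR adjusted p = 0.214). Ighg2c was at 3.42 without the first DMSO library and 2.00 without the second, called in both. In T cells Igkc was at 442 and 560 against 110 and 110 CPM (log2 2.19, SE 0.12, edgeR adjusted p = 0.00223), 1 of 8 members tested beside 0.0541% of genes. In macrophages Igkc was at 337 and 454 against 96.3 and 88.2 CPM (log2 2.10, SE 0.15, edgeR adjusted p = 0.00593), 1 of 8 members tested beside 1.58% of genes. With predicted doublets kept the Igkc estimate there was 3.81 (edgeR adjusted p = 0.00212). Non-overlap above DMSO was found for 6 of 7, 6 of 8 and 6 of 8 members in endothelium, T cells and macrophages, against 21.5%, 23.9% and 26.7% of genes. Iglc2, counted there, had 33 and 17 against 8 and 13 UMIs in endothelium and 39 and 37 against 8 and 8 in T cells. In those classes it passed the filter through the BPTES libraries alone, so its order there is no support. In macrophages Ighd lay below without overlap, at 7.05 and 6.90 against 9.85 and 8.02 CPM, and was not called. It was 1 of 8 members below, beside 4190 of 13808 genes, so that order does not set Ighd apart. Ighg1 and Ighg3 did not pass the filter in any of these 3 classes.

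Ighm did not separate by group in macrophages. There it was at 285 and 243 CPM under BPTES and at 270 and 257 under DMSO (log2 0.0020, SE 0.097, edgeR adjusted p = 0.992). Plasmacytoid dendritic cells held more, at 1032 and 965 against 949 and 891 unscaled CPM, and natural killer cells 250 and 184 against 205 and 212. Those 2 classes had fewer than 50 cells in at least 1 library and were not tested. Igha in the plasmacytoid dendritic cells was 84.5 and 148 against 18.6 and 10.7 CPM. The second DMSO library had 5 of these cells with 2 Igha UMIs, and no test was made. The summed B cell markers in macrophages were 134 and 98.5 against 134 and 188 CPM. Their part in the Ighm level was not tested.

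**Figure D5:**
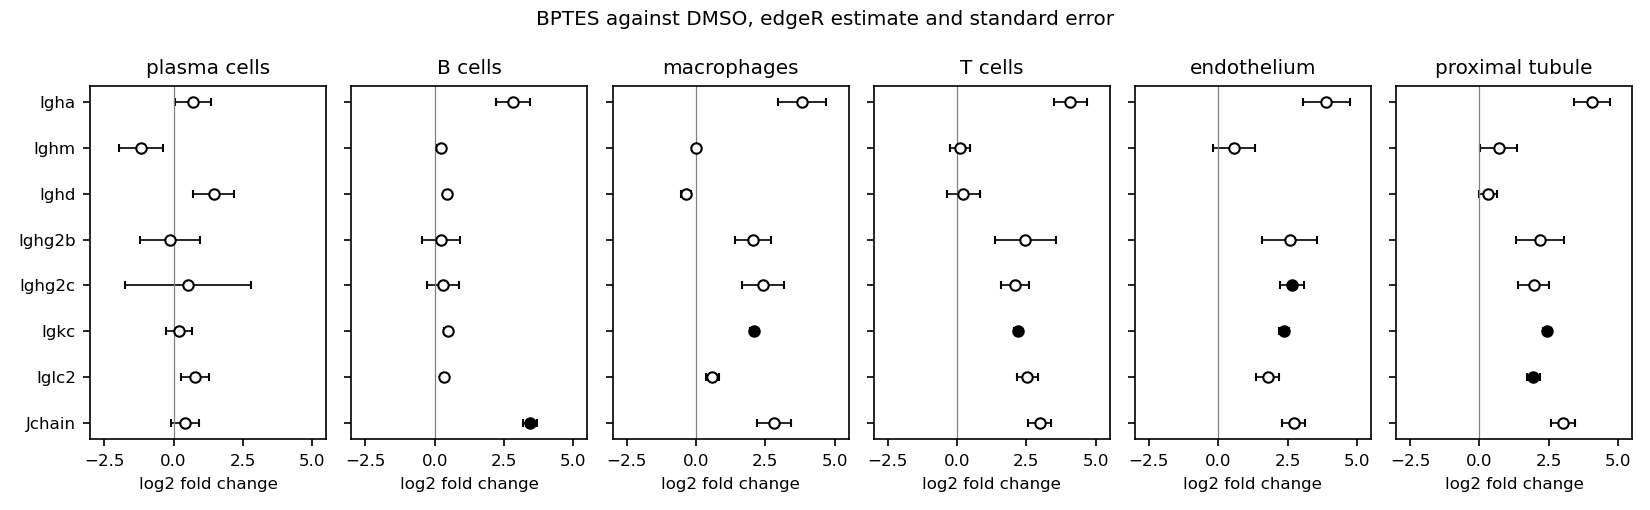
Log2 fold change of BPTES against DMSO from edgeR (horizontal axis) for 8 members in 6 cell classes, with a standard error worked back from the test's F value. Filled points have an adjusted p under 0.05, and a missing point did not pass the filter. Ighg1 and Ighg3 are left out because they rested on single cells in plasma cells and failed the filter in most other classes. Igkc is filled in 4 classes at 2.10 to 2.43, and Jchain in B cells at 3.43.

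The treatment difference in B cells was compared directly with that in proximal tubule cells, with the library as a block. On the log2 scale it was smaller in B cells for 4 of the 10 members, beside 1.17% of 16780 genes called smaller. These are ratios taken from unlike levels. Mean Igkc went from 4522 CPM under DMSO to 6225 under BPTES in B cells, and from 62.0 to 334 in proximal tubule. In CPM the Igkc step was thus larger in B cells. The difference of differences was -1.90 for Igkc (SE 0.21, edgeR adjusted p = 0.00129), -1.85 for Ighg2b (SE 0.22, edgeR adjusted p = 0.00130), -1.64 for Ighg2c (SE 0.27, edgeR adjusted p = 0.00901) and -1.55 for Iglc2 (SE 0.26, edgeR adjusted p = 0.00977) on the log2 scale. Jchain (0.58, SE 0.61), Igha (-1.14, SE 0.68) and Ighm (-0.36, SE 0.81) did not pass, which does not show that they differed equally in both classes. The Ighg2b value was -0.42 with predicted doublets kept and 0.014 under a mitochondrial limit of 25%. Under that limit Igkc was at -1.44 (edgeR adjusted p = 0.201), and with finer clustering Igkc was at -0.97 and Iglc2 at -0.97, none of them called.

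Other genes of the pathway came from 4 lists. Of 15 genes of plasma cell secretion, 13 were tested in plasma cells and 0 were called, with a median log2 difference of 0.57 against 0.01 over all genes. In B cells 11 of the 15 were tested and 0 were called. In proximal tubule Mzb1, a chaperone of IgM assembly, rose from 0.598 and 0.664 CPM under DMSO to 1.65 and 1.80 under BPTES (log2 1.45, edgeR adjusted p = 0.0388), and the other 12 tested were not called. In macrophages Ell2, an elongation factor of the secretory switch, was lower under BPTES (47.6 and 45 against 58.8 and 64.0 CPM, edgeR adjusted p = 0.0390). This was 1 of 12 tested there, beside 467 of 13808 genes called lower.

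Of 5 other constant genes, the lambda gene Iglc1 rose in endothelium (14.0 and 10.2 against 1.05 and 2.54 CPM, log2 2.69, edgeR adjusted p = 0.0207) and in macrophages (15.2 and 9.32 against 2.78 and 3.61 CPM, log2 1.94, edgeR adjusted p = 0.0200). The macrophage call of Iglc1 was not kept without the second BPTES library. No other gene of that list was called in the 6 classes. Ighe, the IgE constant gene, had 11 and 7 UMIs in all barcodes under BPTES and 28 and 5 under DMSO. Of 9 genes of the B cell receptor and class switching, 0 were called in any of the 6 classes. In the comparison of B cells with proximal tubule, the treatment difference of Cd79a, the receptor's signalling chain, was called smaller in B cells (-1.18, edgeR adjusted p = 0.0359). So was the treatment difference of Mzb1 (-1.39, edgeR adjusted p = 0.00793). Within B cells the unscaled level of Mzb1 was 274 and 220 against 263 and 234 CPM. That of Cd79a was 1401 and 1450 against 1372 and 1171 CPM. In proximal tubule the 10 B cell markers, Cd79a included, summed to 5.95 and 4.19 against 4.37 and 3.55 CPM. The Cd79a call thus compares a ratio at very low levels with 1 at high levels, and does not show a weaker response of B cells. For Fcgr1 the estimate was more negative in B cells (-3.64) than in proximal tubule (-1.10), with a difference of -2.37 (edgeR adjusted p = 0.0489). For the inhibitory IgG receptor Fcgr2b it was -0.85 against 0.29, with a difference of -1.07 (edgeR adjusted p = 0.0061). Neither Fcgr1 nor Fcgr2b was called within B cells or within proximal tubule. Macrophage markers in the B cell class were also lower under BPTES (1269 and 715 against 3094 and 8968 CPM). Their part in the Fcgr1 and Fcgr2b values was not tested.

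Of 12 immunoglobulin receptors and transporters, Fcgr1, the high-affinity IgG receptor, was lower in macrophages under BPTES (163 and 163 against 223 and 256 CPM, log2 -0.56, edgeR adjusted p = 0.0208). It was the only call of that list in the 6 classes, 1 of 10 tested in macrophages beside 467 of 13808 genes called lower. The Fcgr1 and Ell2 calls in macrophages were not both kept without the second BPTES library. In proximal tubule Pigr was at 20.2 and 16.6 against 19.3 and 25.2 CPM and Fcgrt, the neonatal receptor that recycles IgG, at 105 and 120 against 93.0 and 106 CPM, and neither was called. Pigr was higher in the distal convoluted tubule, where its unscaled level was 273 and 211 against 282 and 644 CPM.

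The patterns most like those of Jchain, Igha and Ighm were sought by Pearson's correlation of the mean log2(CPM + 1) over 21 classes, among 8945 genes outside the immunoglobulin genes. This is a description, since all classes share the same libraries. Derl3, Tnfrsf17, Eaf2, Mzb1 and Cd79a, found below, were also among the markers used to name the classes. Jchain was closest to Prg2 (0.97), Derl3 (0.96), Tnfrsf17 (0.94), Ccr10 (0.93) and Eaf2 (0.80). Igha had the same 5 neighbours, with Ccr10 first (0.97) and Eaf2 last (0.78). Ighm was closest to Gm30211 (0.90), Mzb1 (0.90), Cacna1s (0.84), Pou2af1 (0.83) and Cd79a (0.82). The neighbours of Jchain and Igha were much higher in plasma cells than in B cells. Of the Ighm neighbours, Gm30211, Mzb1 and Cacna1s were also higher in plasma cells (10.34 against 7.93, 10.14 against 7.96 and 5.77 against 3.57). Pou2af1 and Cd79a were higher in B cells (8.17 against 7.93 and 10.40 against 8.98).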

How the data were processed

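The deposited matrices hold raw UMI counts per gene and barcode, written by Cell Ranger 8.0.1 on build mm10, per the submitters' processing notes; the gene annotation is not given in the sources used here. The features and barcodes files, deposited with other identifiers, name rows and columns. A reporter row was left out. Barcodes with at least 500 UMIs, at least 300 genes and at most 50% mitochondrial UMIs were kept (50605), and 3867 predicted doublets (0.4% per 1000 barcodes, by Scrublet score) were removed. Cells were clustered with scanpy 1.11.5 and leidenalg 0.10.2 (3000 variable genes, 40 components, 15 neighbours, resolution 1) without immunoglobulin genes or Jchain, giving 56 clusters, of which those holding 2468 cells stayed unnamed. Counts were summed per library and class and tested with edgeR 4.0.16 (trimmed mean of M-values, filterByExpr, robust quasi-likelihood test, Benjamini-Hochberg over all genes tested, threshold 0.05). The class by treatment interaction used the library as a block. The SE printed beside an edgeR log2 difference was worked back from the test, as the absolute difference divided by the square root of F. Cell numbers were tested over 18 CD45-positive groups. A leading gene had the most heavy chain UMIs in a cell, ties set apart. On simulated counts with 200 changed genes the test was checked before use. The spread there was fixed and not taken from these libraries, so the check does not give the power or error of the tests here. DESeq2 1.42.0, other filters, limits and resolutions, and leaving out each library were alternatives. Named genes were all members, called genes of the 4 lists, and Pigr, Fcgrt and Ighe; a further gene named by that rule is not reported here. The members and lists were chosen with earlier results of these data known. Coordinates and sequences came from the GENCODE annotation and genome of GRCm38. The limit for a count of 0 covers counting error only.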

Additional observations from a re-analysis of the deposited data

Results flagged for a closer look

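The treatment difference in B cells differed from that in proximal tubule cells, by the test of the difference itself, for Igkc (-1.90), Ighg2b (-1.85), Ighg2c (-1.64) and Iglc2 (-1.55) on the log2 scale. Barcodes outside the comparisons also carried Igha. In barcodes removed as predicted doublets Igha was at 3729 and 17867 CPM under BPTES and at 1220 and 323 CPM under DMSO. In barcodes over the mitochondrial limit it was at 203 and 387 CPM under BPTES and at 28.3 and 7.62 CPM under DMSO.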

How the results depend on the processing

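The number of members called moved with the processing in every class. Alternative values were followed for the members called in the reported fit, Igha, Ighm and Jchain in plasma cells and Igha in B cells. Of these values, 180 of 199 kept direction and side of the threshold. Other members not called in the reported fit are outside that count, also where an alternative called them. With DESeq2 the members called were 4 in B cells, 4 in proximal tubule, 4 in endothelium, 5 in macrophages and 4 in T cells, where DESeq2 called 485, 705, 130, 748 and 121 of all genes. Without a low-count filter they were 3, 9, 4, 2 and 3 in that order (all genes 1256, 1835, 633, 2251 and 528), and 7 for B cells against proximal tubule (892). With all genes called again in brackets, the mitochondrial limit of 25% gave 1 in plasma cells (167) and 2 for B cells against proximal tubule (122). Leiden resolution 2 gave 0 in proximal tubule (61), 2 in macrophages (482) and 2 for B cells against proximal tubule (228). With predicted doublets kept the numbers were 3 in proximal tubule (34), 1 in endothelium (5), 3 in macrophages (729) and 3 for B cells against proximal tubule (19). Leaving out 1 library at a time gave 0 to 2 in plasma cells, 1 to 3 in B cells, 3 to 5 in proximal tubule, 1 to 4 in endothelium, 1 to 2 in macrophages, 1 to 3 in T cells and 4 to 6 for B cells against proximal tubule. All genes called ranged over the alternatives from 2 to 167 in plasma cells (7 in the reported fit), 2 to 1256 in B cells (225), 5 to 2257 in proximal tubule (62), 0 to 633 in endothelium (60), 2 to 2333 in macrophages (685), 2 to 804 in T cells (21) and 19 to 959 in the comparison of B cells with proximal tubule (245). Igha-led plasma cells stayed called at 4.22 to 6.49 under the 11 alternatives run. Ighm-led plasma cells passed the threshold with a strict lead (2.19), DESeq2 (2.24) and the mitochondrial limit (2.58), and ran from 0.99 to 3.24 without single libraries. Igha-led B cells passed it with DESeq2 (2.21), the mitochondrial limit (2.07) and resolution 2 (2.21), and ran from 1.48 to 3.11 without single libraries. The IgG share of plasma cells under DMSO was 7.45% by UMIs and 23.5% as a mean over cells. Signs turned for Jchain in plasma cells without the second BPTES library (range without single libraries -0.27 to 0.87), for Ighm in plasma cells without the second DMSO library (-2.20 to 0.19) and for Ighg2b in the comparison of B cells with proximal tubule under the mitochondrial limit (0.014). The cause was not tested.

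With the replicate number as a block, members called were 1 in plasma cells, 3 in B cells, 4 in proximal tubule, 0 in endothelium, 1 in macrophages and 3 in T cells. That edgeR fit called 20, 801, 2257, 0, 78 and 804 of all genes in the same order. In endothelium it had 1471 genes at an unadjusted p under 0.05, and DESeq2 without the block called 130. In endothelium that loss of every call took in Igkc (2.36, edgeR adjusted p = 0.112) and Ighg2c (2.63, edgeR adjusted p = 0.205). Libraries of different groups share only a number, and the deviations of same-numbered libraries correlated at -0.10 in plasma cells, 0.03 in B cells, 0.28 in proximal tubule, 0.03 in endothelium, -0.02 in macrophages and 0.12 in T cells. A crossed pairing in plasma cells, chosen after seeing the data, called 1 member and 160 genes, against 20 genes with the block. Leaving out the smaller B cell cluster or plasma cells under 5000 UMIs, also chosen after seeing the data, left 1 and 0 members and 2 and 9 genes called. The small number of cells limits the IgG genes, and depth limits the first DMSO library's plasma cells, of which 12 of 22 had under 5000 UMIs.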

Other observations

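Cells rich in immunoglobulin also fell in classes of another name. In the cycling class Ighm was at 184 and 10521 CPM under BPTES and at 4238 and 302 CPM under DMSO, and Ighg2b at 3383 CPM in the second DMSO library. Barcodes with at least 1000 heavy chain UMIs numbered 0 and 1 against 2 and 1 in that class. In the injured tubule class of the second DMSO library Ighm was at 1388 CPM, against 14.7 CPM in the first. In the mural cells of the second BPTES library Ighg2b was at 224 CPM, against 9.92 CPM in the first.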
